A study of Mus musculus with 10 samples.

Results

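This account covers 35 genes that encode enzymes of purine and pyrimidine metabolism other than the glutamine amidotransferases, in tumour-associated macrophages of mice given a glutamine antagonist. The genes were chosen by name, with earlier results of these data known, so shares called by class cannot be taken as independent of them. Sorted by textbook function, they are 11 de novo, 9 salvage and breakdown, 4 nucleotide kinase and 11 deoxynucleotide supply and control genes. Of the 35 genes, 34 had a row in the tables, which list 46957 loci in all; Aprt was not analysed here. Nme1 and Nme2 share 1 locus, and Dut has a second locus with no fragment in any sample, so the values below cover 33 loci, all of which passed the filter on low counts.

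The macrophages came from tumours of 4T1 cells, a mouse mammary carcinoma line, growing in mammary fat pads in BALB/cJ animals. Mice of the treated group (5 samples) received JHU083 (which releases the glutamine antagonist 6-diazo-5-oxo-L-norleucine) at 1 mg/kg from day 7 to day 13, and mice of the control group (5 samples) received PBS vehicle. All tumours were harvested on day 14, and live cells positive for CD45, CD11b and F4/80 and negative for CD8, Ly6C and Ly6G were sorted for RNA sequencing. The labels give neither the age of the mice nor whether a sample is 1 mouse or a pool, so the p-values measure the spread between these samples.

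Purine nucleotides are built de novo on phosphoribosyl pyrophosphate, and pyrimidines as a free ring that is then joined to it; several steps of both routes take nitrogen from glutamine. Salvage enzymes rebuild nucleotides from free bases and nucleosides, and breakdown enzymes take purines to uric acid. Ribonucleotide reductase turns ribonucleotides into deoxyribonucleotides, and a set of enzymes that is mostly made in S phase supplies thymidylate. Macrophages that do not divide are known for low deoxynucleotide pools, which SAMHD1, a deoxynucleotide triphosphohydrolase, helps to keep low.

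Depth lay between 11147870 and 14575932 fragments in vehicle and between 13638381 and 15740700 in JHU083. All 12 macrophage markers examined were expressed, with a summed level of 22618 to 27270 CPM (counts scaled to library size) in vehicle and 28465 to 35819 CPM in JHU083, and 5 of the 12 were higher after JHU083, among them Mertk and Mrc1. Ly6g, Ly6c2 and Cd8a, the genes of the sort's negative markers, had at most 2, 13 and 6 fragments in any sample. Other genes of the same marker lists were present: Ccr2 reached 7518 fragments, Retnlg 674, Cd4 621 and S100a9 275. Tumour epithelial markers were present in every sample and lower after JHU083, with a summed level of 302 to 659 CPM in vehicle and 104 to 222 CPM in JHU083 over 10 genes, and 9 of the 9 tested fell. The ribosomal locus Rn18s-rs5 was listed at 0 in 3 vehicle and 2 JHU083 samples. JHU083 replicate 3 stood apart from the other treated samples: it had the highest CPM of its group at 19 of the 33 loci, against 3 or 4 for each other treated sample, so counts are also given without it.

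Promoter sequences are shown for 3 genes, namely Rrm1 and Rrm2, which encode the subunits of ribonucleotide reductase and fell together, and Gda, the gene with the largest rise. Each window is RefSeq sequence of GRCm38.p6 on the strand of the gene, from 250 bases before to 50 bases after the annotated start, and capitals mark CCAAT or its reverse complement ATTGG. The windows are chr7:102441445-102441744 on the plus strand for Rrm1, chr12:24708004-24708303 on the plus strand for Rrm2 and chr19:21472612-21472911 on the minus strand for Gda.
Rrm1: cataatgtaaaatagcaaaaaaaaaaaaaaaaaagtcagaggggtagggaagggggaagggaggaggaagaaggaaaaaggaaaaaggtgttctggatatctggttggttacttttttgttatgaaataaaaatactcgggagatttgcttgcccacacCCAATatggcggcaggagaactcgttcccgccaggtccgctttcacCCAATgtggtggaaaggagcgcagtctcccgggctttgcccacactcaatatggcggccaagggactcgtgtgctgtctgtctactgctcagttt
Rrm2: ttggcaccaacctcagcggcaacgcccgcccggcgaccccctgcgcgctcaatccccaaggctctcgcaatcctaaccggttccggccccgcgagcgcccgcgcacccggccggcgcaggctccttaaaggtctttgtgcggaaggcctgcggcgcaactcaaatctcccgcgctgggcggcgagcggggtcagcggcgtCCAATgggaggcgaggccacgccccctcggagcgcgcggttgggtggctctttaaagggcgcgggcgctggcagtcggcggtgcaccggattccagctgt
Gda: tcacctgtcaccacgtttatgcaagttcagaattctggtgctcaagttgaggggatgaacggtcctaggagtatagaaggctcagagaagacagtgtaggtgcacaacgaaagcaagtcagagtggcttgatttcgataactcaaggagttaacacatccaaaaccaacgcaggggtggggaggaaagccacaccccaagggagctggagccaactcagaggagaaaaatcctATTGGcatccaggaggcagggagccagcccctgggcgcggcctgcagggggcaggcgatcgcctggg

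Of the genes analysed, 31 had at least 1 promoter window in the table; Xdh, Dhodh and Rrm2b did not. CCAAT on either strand was found in 16 of their 38 windows, and in 37.4% of all 32851 windows of that length. By class it was in 5 of 12 deoxynucleotide windows (of Rrm1, Rrm2, Dtymk and Dctd), 5 of 11 de novo windows, 5 of 8 salvage windows and 1 of 7 nucleotide kinase windows. In the windows printed above, its first base lay 91 and 45 bases before the start in Rrm1, 50 bases before it in Rrm2 and 17 bases before it in Gda. The E2F motif, searched on both strands as TTTCCCGC, TTTCGCGC, TTTGCCGC and TTTGGCGC, was found in 1 window, of Prps2, and in 2.27% of all windows. The E-box CACGTG was found in 7 of the 38 windows, of Paics, Atic, Impdh2, Nme1, Tyms and Dtymk, and in 7.15% of all windows. No matches of different motifs overlapped in these genes' windows, and a match only describes the letters present.

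Across the enzymes, JHU083 went with lower transcripts for deoxynucleotide supply and a mixed picture in salvage and breakdown. Of the 11 de novo loci, 3 fell and 1 rose, a share called (36.4%) close to that over all loci tested. By the edgeR quasi-likelihood test, adjusted over all 12500 loci tested, 14 of the 33 loci were lower and 4 were higher in JHU083. Over all loci tested, 18.3% were lower and 18.4% were higher, or 36.7% in either direction. The median log2 fold change was -0.88 for the 11 deoxynucleotide loci, -0.12 for the 11 de novo loci, -0.17 for the 3 kinase loci and 0.24 for the 8 salvage and breakdown loci, beside 0.01 over all loci tested. Without JHU083 replicate 3, 18 loci were lower and 5 higher, and the shares over all loci rose too, to 23.1% lower and 22.9% higher. Scaled to library totals alone, 19 were lower and 2 higher, with 25.1% lower and 12.5% higher over all loci, and the share of calls that were higher moved from 50.03% to 33.2%.

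**Figure D1:**
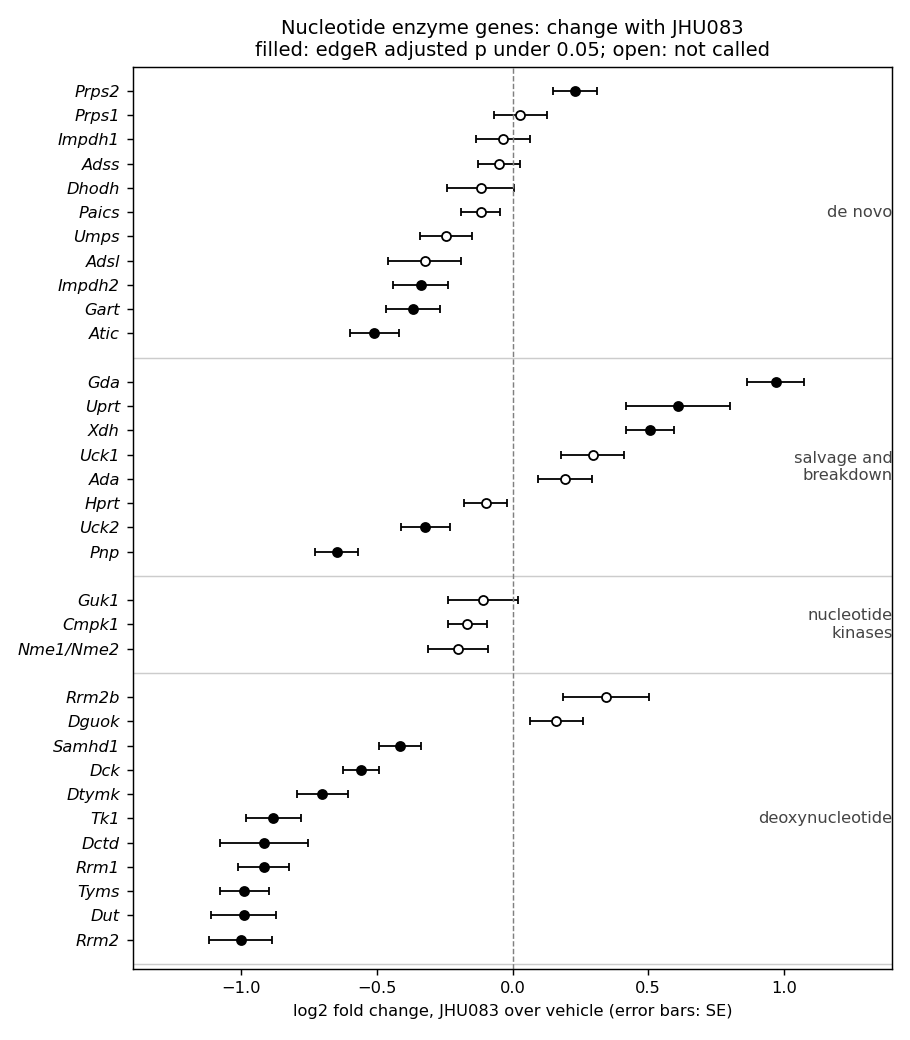
Log2 fold change of JHU083 over vehicle (horizontal axis) for the 33 loci, grouped by class, with the standard error as bars; filled points have an edgeR adjusted p under 0.05 and open points do not. Of the 11 deoxynucleotide loci, 9 lie to the left of 0 with filled points, down to -1.002 for Rrm2, and Gda is the farthest to the right at 0.97.

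Of the 11 deoxynucleotide loci, 9 (81.8%) fell and none rose by the edgeR test. In CPM, the same 9 had every JHU083 sample below every vehicle sample. Over all loci tested, 11.1% were separated in this way, and 22.3% in either direction. The 9 were Rrm1, Rrm2, Tyms, Dut, Dctd, Tk1, Dtymk, Dck and Samhd1, and the other two, Rrm2b and Dguok, had positive differences that did not pass. In bulk RNA, fewer cells that carry a transcript and less of it per cell cannot be told apart.

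Ribonucleotide reductase makes deoxyribonucleotides from all ribonucleoside diphosphates, with Rrm1 encoding its large catalytic subunit and Rrm2 the small subunit of dividing cells. Rrm1 (chromosome 7, 102441695 to 102469771, GRCm38.p6) had 101, 89.9, 74.6, 76.8 and 95.6 CPM in vehicle replicates 1 to 5 and 50.7, 46.5, 46.5, 42.8 and 45.3 CPM in JHU083 replicates 1 to 5. It fell by 0.92 ± 0.09 on the log2 scale (SE, n = 5 per group, edgeR adjusted p = 1.12e-05), and the treated samples lay close together. Rrm2 (chromosome 12, 24708254 to 24714146) had 46.6, 42.6, 37.5, 32.2 and 46.1 CPM in vehicle and 21.1, 21.6, 22.6, 16.6 and 20.5 CPM in JHU083. It fell by 1.00 ± 0.12 (SE, adjusted p = 2.33e-05), the largest decline among the 33 loci, and vehicle replicate 4 was the vehicle sample nearest to the treated ones. Rrm2b encodes the alternative small subunit, known as a p53 target that serves cells outside S phase. Rrm2b had 8.95, 12.9, 15.2, 10.8 and 9.23 CPM in vehicle and 12.5, 15.5, 11.6, 17.0 and 15.8 CPM in JHU083, a log2 difference of 0.34 ± 0.16 (SE, adjusted p = 0.104). The groups overlapped for Rrm2b, and the difference passed without vehicle replicate 3 (0.47, edgeR adjusted p = 0.0267) and without JHU083 replicate 3 (0.41, edgeR adjusted p = 0.0422).

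Thymidylate is made from deoxyuridylate by Tyms, from thymidine by the cytosolic kinase Tk1, and is passed on by thymidylate kinase, Dtymk; Dut and Dctd supply the deoxyuridylate. Tyms had 35.7, 34.5, 28.6, 35.1 and 31.6 CPM in vehicle and 15.2, 18.0, 17.5, 16.9 and 15.9 CPM in JHU083, and fell by 0.99 ± 0.09 on the log2 scale (SE, n = 5 per group, edgeR adjusted p = 4.81e-06). Tk1 had 53.4, 48.2, 41.9, 48.6 and 47.5 CPM in vehicle and 26.3, 29.1, 28.8, 25.5 and 20.5 CPM in JHU083. It fell by 0.88 ± 0.10 (SE, adjusted p = 2.53e-05), and the lowest vehicle sample, replicate 3, was still well above the highest treated one. Dut, which hydrolyses dUTP and so keeps uracil out of DNA, went from 30.9 ± 3.09 to 15.6 ± 2.78 CPM (SD, n = 5), a fall of 0.99 on the log2 scale, with its highest treated value, 20.1 CPM, in JHU083 replicate 3. Dctd, a deaminase of deoxycytidylate, was one of the least abundant of these genes, with a vehicle level of 6.01 ± 0.85 CPM and a treated level of 3.19 ± 0.45 CPM (SD, n = 5 each), and fell by 0.92 ± 0.16 (SE, adjusted p = 0.000667). Dtymk fell less, by 0.70 ± 0.09 (SE, adjusted p = 8.35e-05), from 51.7 ± 3.96 to 31.8 ± 3.97 CPM (SD, n = 5).

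Salvage of other deoxynucleosides runs through Dck in the cytosol and Dguok in mitochondria. Dck had 93.5, 89.3, 87.4, 84.9 and 97.0 CPM in vehicle and 57.5, 61.4, 62.3, 64.0 and 62.0 CPM in JHU083, and fell by 0.56 ± 0.07 on the log2 scale (SE, n = 5 per group, edgeR adjusted p = 3.64e-05). Dguok had 17.0, 15.7, 15.9, 15.5 and 17.5 CPM in vehicle and 16.1, 17.5, 21.2, 19.7 and 16.8 CPM in JHU083, a difference of 0.16 ± 0.10 (SE, adjusted p = 0.211) with overlapping groups. Samhd1, which breaks deoxynucleotides down and so acts against the other enzymes of the class, also fell, but less. It had 332, 318, 286, 307 and 339 CPM in vehicle and 261, 219, 213, 245 and 249 CPM in JHU083, a fall of 0.41 ± 0.08 (SE, adjusted p = 0.000886). Measured per length, Samhd1 was the third most abundant of the 33 loci in vehicle, at 108 ± 6.69 FPKM (a level corrected for gene length and depth, SD, n = 5), against 19.2 ± 2.93 FPKM for Rrm2 and 21.8 ± 2.27 FPKM for Rrm1. In JHU083 Samhd1 was at 93.2 ± 7.51 FPKM (SD, n = 5). In FPKM the groups overlapped for Samhd1 (vehicle minimum 98.6, JHU083 maximum 100.2) and for Dctd (vehicle minimum 2.82, JHU083 maximum 3.63).

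**Figure D2:**
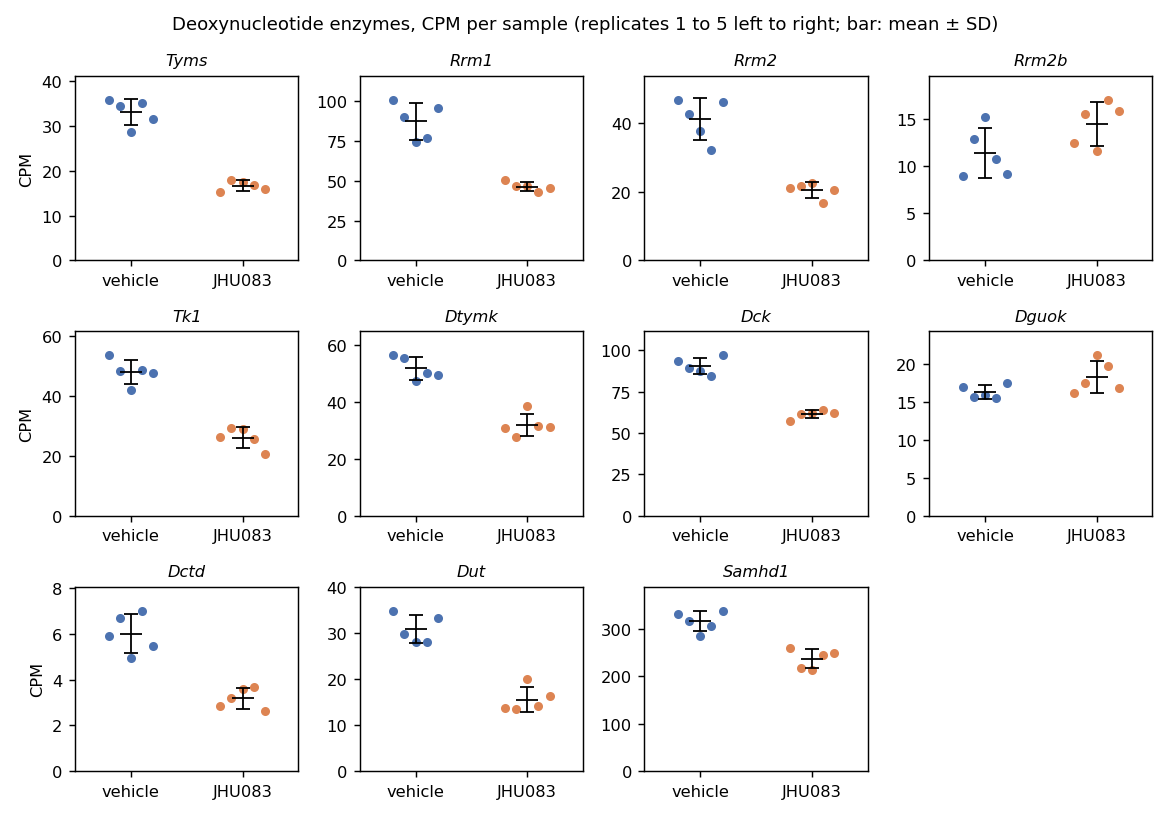
CPM (vertical axes from 0, 1 panel per gene) of the 11 deoxynucleotide genes in the 5 vehicle (blue) and 5 JHU083 (orange) samples, replicates in order from left to right, with the mean and SD in black. In 9 panels all treated points lie below all vehicle points, while the groups overlap for Rrm2b and Dguok.

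The same 9 declines were called in every fit that left out 1 sample, and by DESeq2 and limma-voom. Over all loci tested, 15.1% to 23.1% were lower in these fits. Within the 5 samples with Rn18s-rs5 at 0, 7 of them were called and the class median was -0.80; within the other 5 samples, 8 were called and the median was -0.79. Dctd missed the threshold in both sets (edgeR adjusted p = 0.0503 and 0.0553), and Samhd1 in the first (edgeR adjusted p = 0.0621).

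Markers of dividing cells moved with these genes. Of 10 mitosis genes, 8 were lower by the edgeR test, and of the 8 replication genes analysed of 10 listed, 7 were lower, with medians of -1.14 and -1.13 on the log2 scale; Mki67 (-0.18 ± 0.17, SE, adjusted p = 0.448), Cenpe (-0.43, adjusted p = 0.0880) and Pcna (-0.26, adjusted p = 0.05002) did not pass. The summed CPM of Tyms, Rrm1, Rrm2, Tk1, Dtymk and Dut was 328, 300.4, 258, 271 and 304 in vehicle and 158, 156, 174, 147 and 149 in JHU083. Divided by the summed CPM of the replication genes, it was 0.35 ± 0.01 in vehicle and 0.33 ± 0.02 in JHU083 (SD, n = 5), with overlapping ranges of 0.336 to 0.368 and 0.318 to 0.365. Divided by the summed CPM of the mitosis genes, it was 0.55 ± 0.04 and 0.57 ± 0.12 (SD, n = 5), with JHU083 replicate 3 highest at 0.77. The proportion to the replication genes had a log2 difference of -0.07 beside -0.89 for the enzymes themselves. Pcna, which was not called, held 185 of the 832 CPM of the mean replication sum in vehicle and 155 of 470 CPM in JHU083. The 7 called replication genes fell by 0.75 to 1.27, so the proportion rests partly on Pcna, and it was not computed without that gene. Mki67 likewise held 87.8 of 529 CPM of the mean mitosis sum in vehicle and 77.7 of 286 CPM in JHU083.

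Tumour epithelial markers fell as well, with a median log2 fold change of -1.78 over the 9 tested. Fibroblast markers, of which 5 of 7 fell, summed to 103 to 225 CPM in vehicle and 25.8 to 115 CPM in JHU083. The epithelial sum was 418, 659, 573, 464 and 302 CPM in vehicle replicates 1 to 5 and 147, 183, 104, 222 and 135 CPM in JHU083 replicates 1 to 5. Markers of other cell types also moved. The endothelial marker Pecam1 fell by 1.52 ± 0.25 on the log2 scale (SE, n = 5 per group, edgeR adjusted p = 0.00035). The endothelial sum, which includes Pecam1, was 122 to 209 CPM in vehicle and 34.4 to 82.5 CPM in JHU083. Of its 3 tested genes only Pecam1 was called, and the others did not pass (edgeR adjusted p = 0.176 and 0.362). The neutrophil genes S100a8 and S100a9 fell by 1.40 and 2.18 (edgeR adjusted p = 0.000872 and 0.000196), 2 of 4 tested, while Retnlg and Cxcr2 had differences of 0.45 and 0.60 that did not pass (edgeR adjusted p = 0.490 and 0.222), with list sums of 35.9 to 47.3 CPM and 13.4 to 65.6 CPM. Cd4 rose by 1.12 ± 0.13 (SE, edgeR adjusted p = 2.07e-05), 1 of the 2 T and NK cell genes tested. The list sums were 16.9 to 22.6 CPM in vehicle and 29.5 to 47.1 CPM in JHU083. They were mostly Cd4 itself, at 14.7 CPM in vehicle and 31.8 CPM in JHU083 on average. Genes of the list left untested had few fragments and differed both ways, as Cd3e (0.51 and 0.24 CPM) and Cd3g (0.56 and 0.92 CPM). Among the macrophage markers, Mertk rose by 0.97 and Mrc1 by 0.78. In the monocyte, eosinophil and B cell lists 1 gene each was called, Chil3, Siglecf and Cd79b, all higher, and no dendritic cell gene was. The part of any of these in the results was not tested.

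**Figure D3:**
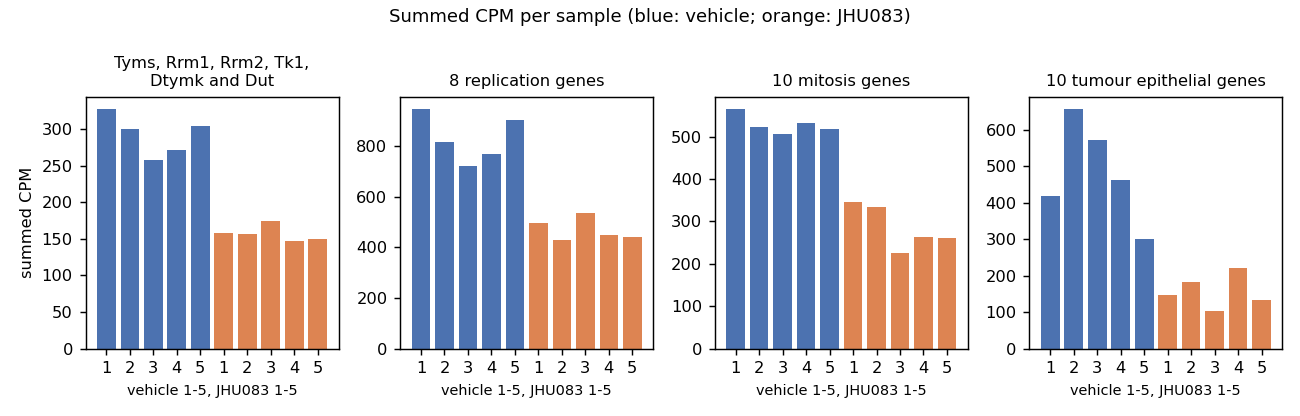
Summed CPM per sample (vertical axes from 0) of 6 deoxynucleotide enzymes, 8 replication genes, 10 mitosis genes and 10 tumour epithelial genes, with vehicle replicates 1 to 5 in blue and JHU083 replicates 1 to 5 in orange. All JHU083 bars are below all vehicle bars in each panel.

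Among the 11 de novo loci, 3 fell (Atic, Gart and Impdh2) and 1 rose (Prps2), and only Atic separated the groups. The 4 calls are 36.4% of these loci, close to the 36.7% called over all loci tested, so the count does not set the class apart. Atic, which carries out the last steps to inosine monophosphate, had 123, 111, 106, 103 and 132 CPM in vehicle and 78.7, 75.8, 94.6, 81.8 and 73.4 CPM in JHU083. It fell by 0.51 ± 0.09 on the log2 scale (SE, n = 5 per group, edgeR adjusted p = 0.000747). Gart, a trifunctional enzyme of earlier steps, had 71.7, 62.3, 60.3, 60.5 and 75.3 CPM in vehicle and 43.8, 50.4, 62.2, 49.5 and 50.3 CPM in JHU083, a fall of 0.37 ± 0.10 (SE, adjusted p = 0.0114). JHU083 replicate 3 was the treated sample inside the vehicle range for Gart. In the samples with Rn18s-rs5 at 0 the calls of Atic (-0.41, edgeR adjusted p = 0.118) and Gart (-0.32, edgeR adjusted p = 0.295) were lost.

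Paics and Adsl, which act between Gart and Atic, did not pass. Paics had 131 to 151 CPM in JHU083 against 138 to 163 CPM in vehicle, a difference of -0.12 ± 0.07 (SE, edgeR adjusted p = 0.206) that passed with library totals only (-0.20, edgeR adjusted p = 0.0292). Adsl had 26.5, 28.9, 44.5, 30.2 and 29.5 CPM in JHU083 against 33.1 to 47.1 CPM in vehicle, a difference of -0.32 ± 0.13 (SE, adjusted p = 0.0738). Only JHU083 replicate 3 overlapped the vehicle samples for Adsl; without it the difference was -0.47 (edgeR adjusted p = 0.0012), and without vehicle replicate 4 it was -0.39 (edgeR adjusted p = 0.0486). It also passed with library totals only, with no filter on low counts and in the samples with Rn18s-rs5 above 0 (-0.41, -0.32 and -0.43).

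Inosine monophosphate goes to guanylate through the dehydrogenases Impdh1 and Impdh2 and to adenylate through Adss and Adsl. Impdh2 had 181, 172, 173, 165 and 181 CPM in vehicle and 137, 110, 173, 147 and 122 CPM in JHU083. It fell by 0.34 ± 0.10 on the log2 scale (SE, n = 5 per group, edgeR adjusted p = 0.0187), with JHU083 replicate 3 at the level of vehicle; the call was lost without JHU083 replicate 5 (-0.29, edgeR adjusted p = 0.0539) and in the samples with Rn18s-rs5 at 0 (-0.15, edgeR adjusted p = 0.519). Impdh1 was at 30.5 ± 1.96 and 29.7 ± 4.21 CPM (SD, n = 5, adjusted p = 0.808), and Adss at 65.7 ± 3.93 and 63.5 ± 4.66 CPM (SD, n = 5, adjusted p = 0.632).

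Phosphoribosyl pyrophosphate, which both routes use, is made by the synthetases Prps1 and Prps2. Prps2 had 39.7, 33.5, 33.9, 33.2 and 39.3 CPM in vehicle and 43.8, 43.2, 38.4, 43.1 and 42.6 CPM in JHU083, a rise of 0.23 ± 0.08 on the log2 scale (SE, n = 5 per group, edgeR adjusted p = 0.0374). All but JHU083 replicate 3 were above the vehicle samples. This call was the least stable: it was lost in 7 of the 10 fits that left out 1 sample (vehicle replicate 2, 3 or 4, or JHU083 replicate 1, 2, 4 or 5), where the difference ran from 0.20 to 0.23 and the edgeR adjusted p from 0.0651 to 0.0957. It was also lost with library totals only (0.15), with no filter on low counts, with ribosomal status as a covariate and within both Rn18s-rs5 sets (0.21 to 0.23). Prps1 was at 45.3 ± 2.35 and 46.2 ± 6.59 CPM (SD, n = 5, adjusted p = 0.841), with a spread in JHU083 from 39.2 to 53.4 CPM that ran beyond both ends of the vehicle range.

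In pyrimidine synthesis, Dhodh, the mitochondrial dehydrogenase of the route, was at 14.9 ± 0.58 and 13.8 ± 2.61 CPM (SD, n = 5, adjusted p = 0.482). Umps, which makes uridylate, was at 55.0 ± 6.15 and 46.4 ± 4.84 CPM (SD, n = 5), a difference of -0.24 ± 0.10 (SE, adjusted p = 0.0590). It passed in 6 of 22 alternatives: without JHU083 replicate 3 or vehicle replicate 4 (both -0.30, edgeR adjusted p = 0.0127 and 0.0290), with library totals only (-0.33), with a stricter filter on low counts (-0.26), by DESeq2 (-0.25, adjusted p = 0.0415) and in the samples with Rn18s-rs5 above 0 (-0.43).

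Among salvage and breakdown genes, 3 of 8 loci rose (Gda, Xdh and Uprt) and 2 fell (Pnp and Uck2). The 5 calls are 62.5% of these loci, against 36.7% over all loci tested. They rest on only 8 loci and went both ways, and the calls of Xdh, Uprt and Uck2 were lost in some settings. Gda, guanine deaminase, turns guanine into xanthine, and Xdh, xanthine dehydrogenase, turns hypoxanthine and xanthine into uric acid. Gda (chromosome 19, 21391307 to 21472661) had 152, 176, 198, 174 and 158 CPM in vehicle and 289, 401, 281, 361 and 351 CPM in JHU083. It rose by 0.97 ± 0.11 on the log2 scale (SE, n = 5 per group, edgeR adjusted p = 1.61e-05), a fold of 1.96, and its treated samples fell into a lower pair, replicates 1 and 3, and a higher trio. Xdh (chromosome 17, 73883895 to 73950397) had 88.0, 92.3, 101, 98.8 and 94.4 CPM in vehicle and 112, 148, 121, 142 and 150 CPM in JHU083, a rise of 0.51 ± 0.09 (SE, adjusted p = 0.000663). Replicates 1 and 3 were again the lowest treated samples, and no groups overlapped for either gene; over all loci tested, 11.2% were separated with JHU083 higher. Within the samples with Rn18s-rs5 at 0, which include these replicates and no other treated sample, Gda rose by 0.75 (edgeR adjusted p = 0.00557) and the Xdh difference was 0.29 (edgeR adjusted p = 0.141); within the others the rises were 1.07 (edgeR adjusted p = 0.000724) and 0.63 (edgeR adjusted p = 0.00382).

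Pnp, the purine nucleoside phosphorylase that releases hypoxanthine and guanine from nucleosides, fell. It had 217, 192, 169, 204 and 216 CPM in vehicle and 126, 119, 137, 131 and 124 CPM in JHU083, a fall of 0.65 ± 0.08 on the log2 scale (SE, n = 5 per group, edgeR adjusted p = 3.79e-05) with no overlap. Pnp has a close copy next to it, Pnp2, and how shared fragments were counted is not given in the sources used here. Ada, adenosine deaminase, which feeds Pnp, was at 132 ± 13.9 and 151 ± 21.0 CPM (SD, n = 5, adjusted p = 0.141), and Hprt, which recovers hypoxanthine and guanine, at 118 ± 5.96 and 110 ± 11.4 CPM (SD, n = 5, adjusted p = 0.348). The purine genes of salvage and breakdown therefore had 2 rises, 1 fall and 2 differences that did not pass.

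For pyrimidine nucleosides, the uridine-cytidine kinases Uck1 and Uck2 parted. Uck2 had 173, 171, 163, 162 and 164 CPM in vehicle and 153, 108, 136, 149 and 122 CPM in JHU083, a fall of 0.32 ± 0.09 on the log2 scale (SE, n = 5 per group, edgeR adjusted p = 0.0126) without overlap. The Uck2 call was lost within both Rn18s-rs5 sets, at -0.20 in the samples at 0 (edgeR adjusted p = 0.308) and -0.42 in the others (edgeR adjusted p = 0.0510). Uck1 had 28.2, 27.4, 25.5, 26.6 and 29.1 CPM in vehicle and 31.0, 31.9, 45.7, 29.5 and 29.9 CPM in JHU083. Its groups did not overlap either, but the difference of 0.30 ± 0.12 did not pass (SE, adjusted p = 0.0600), with JHU083 replicate 3 far above the rest. Without that sample it was 0.16, and with ribosomal status as a covariate it passed at 0.32 (edgeR adjusted p = 0.0345). Uprt, named for its similarity to uracil phosphoribosyltransferase, was the least abundant of the 33 loci at 1.62 ± 0.30 FPKM in vehicle (SD, n = 5), with 37 to 113 fragments per sample. It had 3.46, 4.26, 4.52, 3.21 and 2.97 CPM in vehicle and 4.97, 6.37, 4.02, 5.34 and 7.39 CPM in JHU083, a rise of 0.61 ± 0.19 (SE, adjusted p = 0.0233). JHU083 replicate 3 lay inside the vehicle range for Uprt, and the call was lost in 5 fits that left out 1 sample (vehicle replicate 1, 4 or 5, or JHU083 replicate 2 or 5), with differences of 0.49 to 0.58 and edgeR adjusted p-values of 0.0528 to 0.0707. It was also lost with library totals only (0.53) and within the Rn18s-rs5 sets (0.37 at 0, 0.67 above 0).

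**Figure D4:**
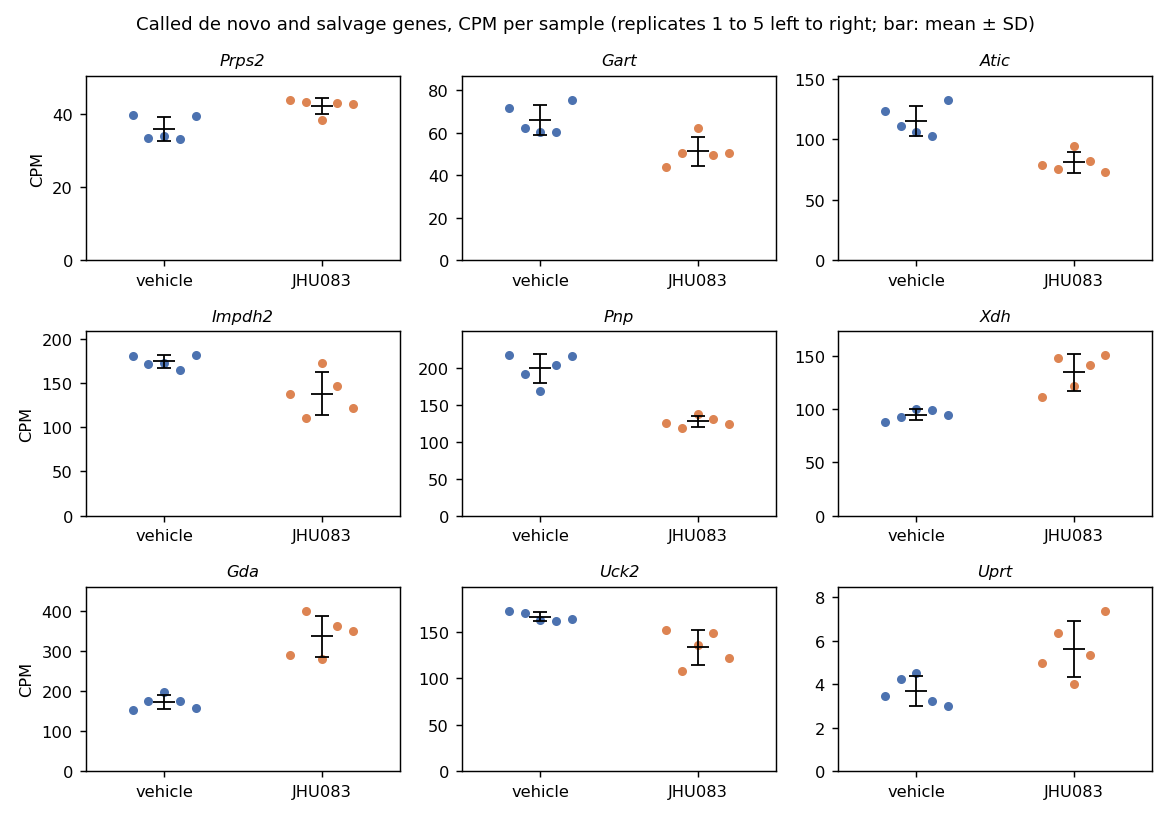
CPM (vertical axes from 0, 1 panel per gene) of the 9 de novo and salvage genes with an edgeR adjusted p under 0.05, in vehicle (blue) and JHU083 (orange) samples, replicates in order from left to right, with the mean and SD in black. Gda and Xdh lie higher in all treated samples, Pnp and Atic lower, and JHU083 replicate 3 is the treated point nearest to vehicle for Gart, Impdh2, Prps2 and Uprt.

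The nucleotide kinases that pass monophosphates and diphosphates on showed no call. The locus of Nme1 and Nme2, which also lists Gm20390, was the most abundant of the 33 per length, at 601 ± 47.4 FPKM in vehicle and 548 ± 97.7 FPKM in JHU083 (SD, n = 5). It had 532, 452, 430, 473 and 515 CPM in vehicle and 393, 342, 545, 428 and 384 CPM in JHU083, a difference of -0.20 ± 0.11 (SE, edgeR adjusted p = 0.170). JHU083 replicate 3 was the highest of all 10 samples there, and the difference passed without it (-0.31, edgeR adjusted p = 0.00653) and with library totals only (-0.28, edgeR adjusted p = 0.0365). Cmpk1, which phosphorylates CMP and UMP, differed by -0.17 ± 0.07 (SE, adjusted p = 0.0831; -0.19 and edgeR adjusted p = 0.0342 without that sample, and also called by DESeq2 and with library totals only), and Guk1, guanylate kinase, by -0.11 ± 0.13 (SE, adjusted p = 0.533).

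Ratios between related enzymes within each sample do not depend on how the libraries are scaled, and 6 pairs were compared. Rrm2 fragments per Rrm2b fragment were 5.14, 3.27, 2.45, 2.96 and 4.92 in vehicle and 1.69, 1.38, 1.93, 0.97 and 1.30 in JHU083. The log2 ratio was lower by 1.34, in 5 of 5 treated samples below all vehicle samples (exact two-sided permutation test, p = 0.0079, adjusted p = 0.0119 over the 6 pairs). That p is the smallest this design can give. Per length, the level of Rrm2 went from 19.2 ± 2.93 to 9.81 ± 1.22 FPKM and that of Rrm2b from 4.10 ± 2.55 to 4.95 ± 1.29 FPKM (SD, n = 5).

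The cytosolic kinases also fell against their mitochondrial counterparts. Tk1 over Tk2, the mitochondrial thymidine kinase, was 1.39 to 1.66 in vehicle and 0.57 to 0.74 in JHU083, and Dck over Dguok was 5.41 to 5.65 in vehicle and 2.93 to 3.67 in JHU083. The log2 ratios were lower by 1.24 and 0.71, each in 5 of 5 treated samples (exact permutation p = 0.0079, adjusted p = 0.0119). Tk2 itself rose from 30.6 ± 1.73 to 39.4 ± 4.00 CPM (SD, n = 5), by 0.36 ± 0.09 on the log2 scale (SE, edgeR adjusted p = 0.00472).

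Among the other pairs, Uck2 over Uck1 was 5.61 to 6.35 in vehicle and 2.96 to 5.03 in JHU083, lower by 0.61 in 5 of 5 treated samples (exact permutation p = 0.0079, adjusted p = 0.0119). Impdh2 over Impdh1 was lower by 0.31, in 4 of 5 treated samples below all vehicle samples (exact permutation p = 0.0317, adjusted p = 0.0381), and lost its call in 9 of the 10 comparisons that left out 1 sample. Prps2 over Prps1 was higher by 0.22, in 3 of 5 treated samples above all vehicle samples, and did not pass (exact permutation p = 0.0873, adjusted p = 0.0873).

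**Figure D5:**
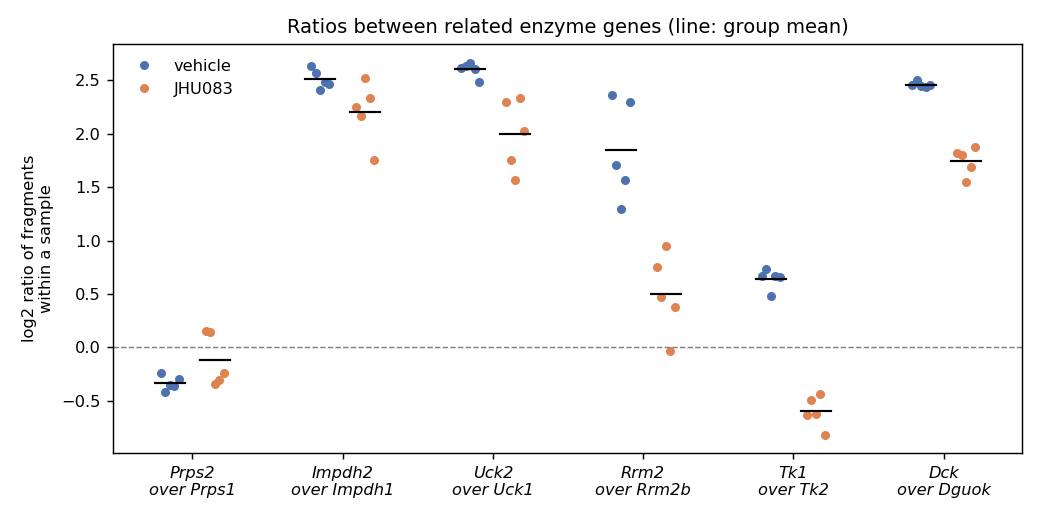
Log2 ratio of fragments within each sample (vertical axis, no correction for length) for 6 pairs of related genes in the vehicle (blue) and JHU083 (orange) samples, with the group mean as a line. The groups are apart for Uck2 over Uck1, Rrm2 over Rrm2b, Tk1 over Tk2 and Dck over Dguok, and overlap for Prps2 over Prps1 and Impdh2 over Impdh1.

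The glutamine amidotransferases of the same pathways, listed for context, held 4 falls and 1 rise among 6 genes. Cad, which starts pyrimidine synthesis, fell by 1.06 ± 0.08 on the log2 scale (SE, n = 5 per group, edgeR adjusted p = 8.38e-07), Ctps by 1.00, Pfas by 0.94 and Ppat by 0.39; Ctps2 rose by 0.54 ± 0.08 (SE, adjusted p = 0.000174) and Gmps did not pass (-0.07, adjusted p = 0.455). Of 49 further purine and pyrimidine genes listed, 38 were tested, 7 fell and 5 rose, with a median log2 fold change of -0.11. These are 18.4% and 13.2% of the genes tested, against 18.3% lower and 18.4% higher over all loci tested, so the counts do not set these genes apart. The uridine phosphorylase gene Upp1 showed the largest fall of these, from 8.29 ± 1.34 to 2.12 ± 0.81 CPM (SD, n = 5), or by 1.97 ± 0.23 on the log2 scale (SE, edgeR adjusted p = 2.26e-05). Mtap, which salvages methylthioadenosine, fell by 0.89 ± 0.13 (SE, adjusted p = 0.000156), the mitochondrial adenylate kinase gene Ak4 by 0.87 ± 0.15 (SE, adjusted p = 0.000644) and Cmpk2 by 0.60 ± 0.14 (SE, adjusted p = 0.00368). Ak1, a cytosolic adenylate kinase, rose by 1.11 ± 0.29 (SE, adjusted p = 0.00867) from a low level of 1.35 ± 0.66 CPM (SD, n = 5). None of the 4 other nucleoside diphosphate kinases and none of the 4 nucleoside transporters tested passed.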

How the data were processed

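RNA was sequenced from 10 samples of sorted macrophages. Polyadenylated RNA was fragmented and randomly primed for paired-end libraries, per the labels' protocols. The submitters' processing notes name bcl2fastq 2.17.1.14, FastQC 0.11.2, TopHat2 2.1.1 and GRCm38; the counting program, the annotation, and how fragments matching several places were counted are not given in the sources used here, so genes with close copies are less certain.

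Each sample has a raw-count and a normalized column, per the file headers. The raw-count column holds expected counts, deposited by the authors, that are not whole. From the values, 99.1% to 99.4% of the positive ones are whole multiples (within 0.02) of a step of 0.888 to 1.17 per sample, and dividing by the step gave the fragment counts used, rounded. The normalized column was taken as FPKM, deposited by the authors, and serves only to compare levels between genes and as an alternative for ratios. One locus without a symbol (at most 0.0021% of fragments) was left out. A count of 3 fragments corresponds to 0.191 to 0.269 CPM.

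Loci were filtered with filterByExpr, scaled with TMM and tested in edgeR 4.0.16 (R 4.3.3) by quasi-likelihood F-tests without covariates, with Benjamini-Hochberg adjustment over 12500 loci at 0.05. All adjusted p-values are from this test unless a permutation test is named. The SE is the absolute log2 fold change over the root of the F statistic. CPM uses TMM-scaled library totals. Ratios are log2 with 2 fragments added to each gene, compared with exact two-sided permutation tests (scipy 1.17.1). The tests were checked on simulated data. As alternatives, limma-voom (limma 3.58.1) and DESeq2 1.42.0 were run, with other scalings and filters, the deposited values rounded, leaving out samples or ribosomal loci, ribosomal status as covariate or split, and a replicate block. Ratios also used other added counts. Gene positions and promoters are RefSeq GRCm38.p6, the genome named in the processing notes, matched by symbol. All 35 members are accounted for, those that passed the test with values per sample or per group; other genes are named only from fixed lists. The members and lists were chosen with earlier results of these data known.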

Additional observations from a re-analysis of the deposited data

Results flagged for a closer look

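For 3 genes, 1 sample lay far from the other 4 of its group (the gap to the next value exceeded 0.71 of the range of the group), and in each it was JHU083 replicate 3. It had the lowest Prps2 level, 5.27 log2 CPM, while its group otherwise spanned 5.42 to 5.46. It had the highest Adsl level, at 5.48 against 4.74 to 4.93, and the highest Uck1 level, at 5.52 against 4.89 to 5.00. Of 66 groups of 5 values examined, about 3.3 would be so by chance (1 in 20).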

How the results depend on the processing

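The count of lower deoxynucleotide genes stayed at 9 in all settings but the split by Rn18s-rs5. The count of higher members, 4, became 2 with library totals only, 2 with the replicate block, 1 in the samples with Rn18s-rs5 at 0 and 2 in the others, and 2 to 5 with 1 sample left out. Over all loci tested, the share higher moved too, from 18.4% to 12.5%, 12.9%, 4.18%, 9.86% and 14.4% to 22.9% in these settings. The count of lower members, 14, became 8 in the samples with Rn18s-rs5 at 0 and 13 to 18 with 1 sample left out. Over all loci tested, the share lower moved from 18.3% to 4.61% and 15.1% to 23.1%. Fits within those sets have 5 samples. The difference in Impdh2 over Impdh1 ran from -0.39 to -0.20 with 1 sample left out. Of 726 comparisons of single members with their reported value, 668 kept direction and call, 32 lost the call, 20 gained it and 6 changed sign, all for genes that had not passed. These were Prps1 (-0.054 with library totals only, -0.038 in the samples with Rn18s-rs5 at 0, -0.028 to 0.084 with 1 sample left out), Hprt (0.038 in the samples with Rn18s-rs5 at 0) and Impdh1 (-0.11 to 0.028 with 1 sample left out). The causes were not tested. The replicate block ended the calls of Prps2 (0.23, edgeR adjusted p = 0.0858) and Uprt (0.60, edgeR adjusted p = 0.0660) and no other member's. Same-numbered samples did not deviate together (mean correlation -0.35 over the 1000 most variable loci), and no sample correlated best with its own number. The median of all loci moved from 0.01 to -0.07 with library totals only.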

Other observations

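Among treated samples, JHU083 replicate 3 was highest at 15 of the 22 de novo, salvage and kinase loci and inside the vehicle range at 12 of them, against 2 to 6 for each other treated sample. At the 11 deoxynucleotide loci it was highest at 4 and inside the vehicle range at 1. It had the highest summed level of replication genes of its group, 536 CPM against 428 to 495, and the lowest of mitosis genes, 227 CPM against 261 to 345. Its tumour epithelial and fibroblast sums, 104 and 25.8 CPM, were the lowest of all 10 samples. Its depth, 14234788 fragments, was within the range of its group.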
